A study of Homo sapiens with 12 samples.

Results

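The transcripts described here are the abundant members of the LINC series, the numbered symbols that human gene nomenclature gives to long intergenic noncoding RNAs with no other assigned name. A row of the count table was chosen by 2 criteria, a symbol of LINC followed only by digits and a mean over all 12 libraries of at least 1 CPM, the count scaled to 1000000 counts per library. This gave 159 transcripts, out of 1737 LINC rows and 28278 gene rows. RNA was sequenced in bulk from pancreatic alpha cells made from HUES-8 human embryonic stem cells, an established line, after 48 h in 30 mL bioreactors at 40 rpm. Tunicamycin libraries (6) came from cells given 5 uM tunicamycin, which blocks N-linked glycosylation in the endoplasmic reticulum (ER), and DMSO libraries (6) came from cells given the DMSO vehicle. Both groups share the cell line and the differentiation protocol, and the numbers 1 to 3 belong to batch 1 and 4 to 6 to batch 2 in each group. All libraries derive from a single cell line, so no value speaks to other genetic backgrounds.

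Long noncoding RNAs are transcribed and often spliced and polyadenylated like messenger RNAs, but carry no long reading frame. Some act on the gene beside them, some serve as hosts from which microRNAs are cut, and for most no role is known. Many are expressed in few cell types, so their levels also report which cells a sample holds. Tunicamycin stress is read by the unfolded protein response, in which the sensors IRE1, PERK and ATF6 raise transcription through XBP1, ATF4 and cleaved ATF6, and in which PERK also slows translation.

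Promoters of 3 of the transcripts are shown because these genes carry the clearest responses or the position nearest to an islet regulator. They are RefSeq promoter windows of GRCh38.p14, from 250 bases before to 50 bases after the annotated start, on the minus strand in all 3 cases. LINC00473 lies at chr6:165987990-165988289, and capitals mark its matches to TGACGTC on either strand, the first 7 bases of a cAMP response element. LINC00471 lies at chr2:231514328-231514627 and held no match to any motif searched. LINC00261 lies at chr20:22578593-22578892, and capitals mark its match to the XBP1-type element core.
LINC00473: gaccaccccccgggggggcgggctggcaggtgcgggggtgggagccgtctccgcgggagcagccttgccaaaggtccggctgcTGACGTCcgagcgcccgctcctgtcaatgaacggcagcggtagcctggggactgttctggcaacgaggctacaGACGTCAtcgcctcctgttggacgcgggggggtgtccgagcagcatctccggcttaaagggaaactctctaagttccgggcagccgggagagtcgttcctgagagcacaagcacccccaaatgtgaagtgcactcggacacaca
LINC00471: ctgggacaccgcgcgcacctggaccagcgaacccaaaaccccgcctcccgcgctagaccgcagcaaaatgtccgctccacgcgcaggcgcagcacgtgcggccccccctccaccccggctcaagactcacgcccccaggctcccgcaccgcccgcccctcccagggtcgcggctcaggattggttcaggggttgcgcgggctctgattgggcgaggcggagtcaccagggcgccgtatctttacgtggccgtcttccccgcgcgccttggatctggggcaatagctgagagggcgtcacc
LINC00261: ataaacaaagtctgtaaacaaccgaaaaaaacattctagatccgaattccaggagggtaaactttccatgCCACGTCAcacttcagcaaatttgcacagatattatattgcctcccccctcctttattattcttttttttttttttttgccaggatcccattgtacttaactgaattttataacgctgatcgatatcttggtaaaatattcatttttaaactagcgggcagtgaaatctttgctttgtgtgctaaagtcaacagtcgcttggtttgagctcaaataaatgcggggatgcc

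Library totals ran from 17523442 counts (DMSO 3) to 28872269 counts (DMSO 1). The stress labels were checked on 10 genes of the unfolded protein response, and 10 of 10 rose, by 0.74 (XBP1) to 2.63 (HSPA5) on the log2 scale. GCG, which encodes glucagon, held 44759 to 68819 CPM in Tunicamycin libraries and 61679 to 91983 CPM in DMSO libraries, and 1 of the 10 alpha cell markers fell. Markers of other cells varied between libraries, with 12 mesenchymal markers summing to 833 to 1459 CPM in Tunicamycin libraries and 754 to 2481 CPM in DMSO libraries. The sum of 8 heart muscle markers was 9.76 to 902 CPM in Tunicamycin libraries and 8.70 to 1988 CPM in DMSO libraries, and none of either list passed the test. Among libraries that stood apart, the number 3 libraries held the highest summed level of LINC transcripts in each group, and Tunicamycin 1 the highest levels of several neural genes.

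Few of these transcripts were called as changed by tunicamycin. With batch in the model, 8 of the 159 passed edgeR's quasi-likelihood test at an adjusted p of 0.05 (Benjamini-Hochberg over all 17137 genes tested), of which 5 rose and 3 fell. That is 5.03% of the transcripts, against 7.84% of all genes tested, with 4.56% of all genes higher and 3.29% lower. With libraries paired by number in place of batch, 16 passed (10.1%), against 17.3% of all genes tested. Values below are from the fit with batch unless another fit is named. Among the 8, the highest rises were LINC00471 (3.57-fold), LINC00473 (2.70-fold) and LINC01881 (2.09-fold), and the deepest fall was LINC02593 (2.16-fold lower). LINC01128, LINC00674, LINC00261 and LINC01843 changed by less than 2-fold. In bulk RNA, fewer cells of a type and less RNA per cell cannot be told apart.

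**Figure D1:**
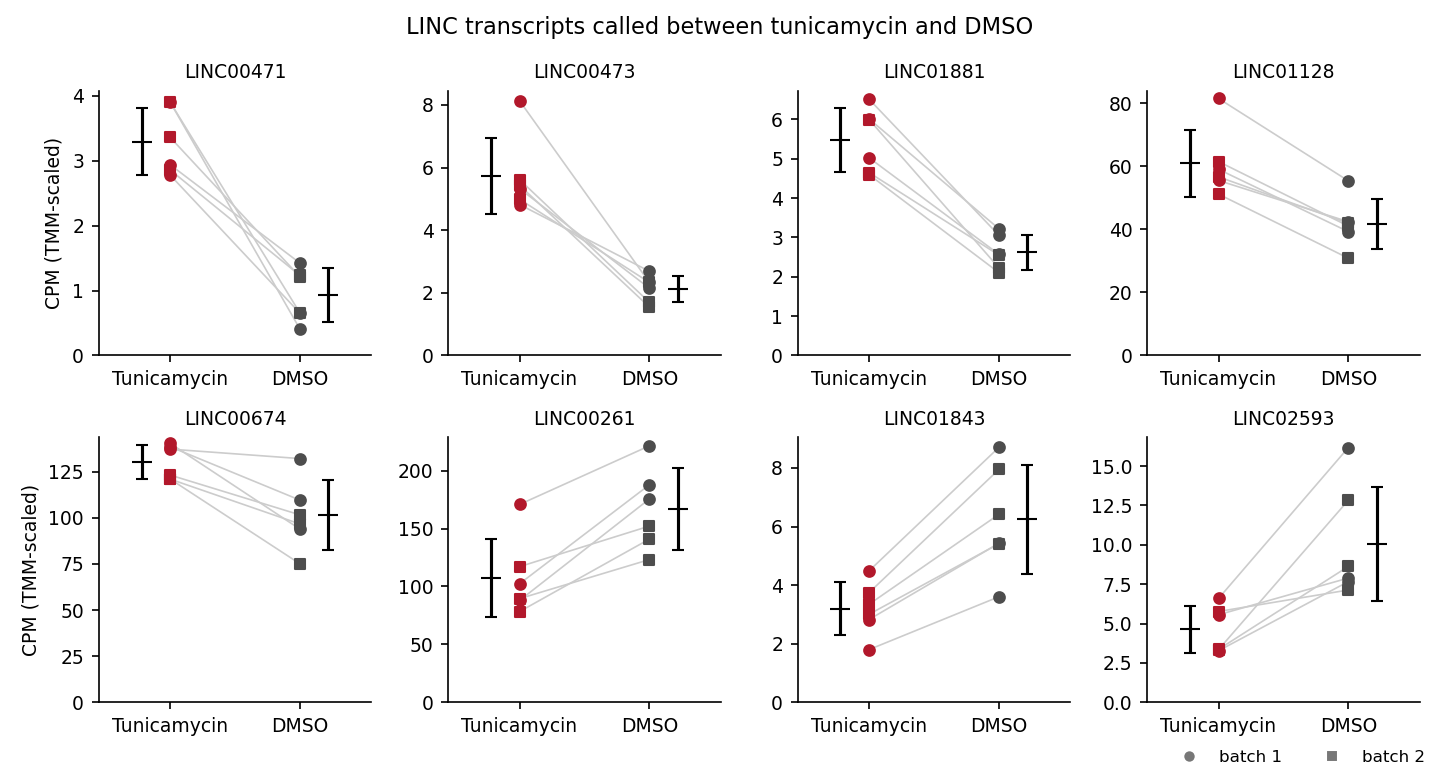
CPM, scaled by TMM factors, of the 8 called transcripts in Tunicamycin (red) and DMSO (dark grey) libraries; grey lines join libraries with the same number, circles are batch 1 and squares batch 2, and black bars are mean ± SD (n = 6). Every line runs the same way within a panel, and the groups are separate for LINC00471, LINC00473, LINC01881 and LINC02593.

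LINC00471 is a 1.28 kb transcript (summed exon length) at chr2:231502087-231514377, minus strand, with no established role. Its level ran from 2.78 to 3.90 CPM in Tunicamycin libraries, median 3.15, and from 0.407 to 1.42 CPM in DMSO libraries, median 0.933. Every Tunicamycin library lay above every DMSO library. The log2 fold change was 1.84 ± 0.31 (SE, adjusted p = 0.00226), with 1.98 in batch 1 and 1.70 in batch 2. The nearest protein-coding gene, NMUR1 at 4.1 kb, was too low to be tested. NCL, which encodes nucleolin and is the nearest tested neighbour at 37.6 kb, had a log2 fold change of 0.03 ± 0.09 (adjusted p = 0.896). None of the other 7 tested genes within 250 kb of the LINC00471 start was called.

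LINC00473 is a primate transcript known to be induced by cAMP signalling through CREB. It lies at chr6:165924048-165988039 on the minus strand and overlaps PDE10A, a phosphodiesterase of cAMP and cGMP, on the same strand. Tunicamycin libraries held 4.82 to 8.13 CPM, median 5.38, and DMSO libraries 1.54 to 2.69 CPM, median 2.24. The groups did not overlap, and Tunicamycin 1 was the highest library. The log2 fold change was 1.44 ± 0.20 (adjusted p = 0.000538), with 1.36 in batch 1 and 1.52 in batch 2. Without both libraries numbered 1 the transcript stayed past the threshold. PDE10A averaged 10.1 ± 4.43 CPM in Tunicamycin libraries and 5.45 ± 2.03 CPM in DMSO libraries (SD, n = 6 each), with a log2 fold change of 0.89 ± 0.32. It did not pass the test (adjusted p = 0.112), but did when libraries were paired by number (adjusted p = 0.00429). LINC00602, a LINC row under 1 CPM whose gene body overlaps the first 0.5 kb of LINC00473, was at 0.63 to 1.02 CPM in Tunicamycin libraries. In DMSO libraries LINC00602 was at 0.48 CPM in DMSO 1 and at most 0.14 CPM in the other 5. Its log2 fold change was 2.55 ± 0.66 (adjusted p = 0.029), and its levels rest on few reads. LINC00602 passed the filter on low counts through its Tunicamycin libraries, so this call is given as a description only. LINC00473 and PDE10A lie on the same strand, so no strand setting would separate their reads where they share sequence. No source used here gives the strand setting of the counting, so reads of LINC00602 there cannot be told apart from theirs.

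LINC01881, at chr2:242088633-242160503 on the plus strand near the chromosome end, has no established role. It was at 4.60 to 6.52 CPM in Tunicamycin libraries, median 5.51, and at 2.11 to 3.22 CPM in DMSO libraries, median 2.56. No library of one group reached the other. Its log2 fold change was 1.06 ± 0.18 (adjusted p = 0.00195), 1.00 in batch 1 and 1.14 in batch 2. Its nearest protein-coding gene, FAM240C, lies 186 kb away and was not tested. The nearest tested one, D2HGDH, a mitochondrial dehydrogenase gene 320 kb away, had a log2 fold change of -0.21 (adjusted p = 0.470). LINC00471, LINC00473 and LINC01881 kept their calls in every alternative tried except batch 1 alone, where no LINC transcript was called and 0.336% of all genes were.

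The other rises were smaller and came from abundant transcripts. LINC01128, at chr1:827591-859446, plus strand, held 51.2 to 81.5 CPM in Tunicamycin libraries, median 57.9, and 30.9 to 55.4 CPM in DMSO libraries, median 41.5. The ranges overlapped, through Tunicamycin 5 and DMSO 2, but every Tunicamycin library was above the DMSO library of its number. Its log2 fold change was 0.54 ± 0.13 (adjusted p = 0.0173). The LINC01128 call was lost without Tunicamycin 4 (adjusted p = 0.0539), in either batch alone and with mesenchymal markers as a covariate, where the log2 fold change was 0.34. LINC00674, at chr17:68101555-68135929, plus strand, held 121 to 140 CPM in Tunicamycin libraries, median 130, and 75.1 to 132 CPM in DMSO libraries, median 99.1. DMSO 3 alone reached into the range of the Tunicamycin libraries. LINC00674 had a log2 fold change of 0.36 ± 0.10 (adjusted p = 0.0403), and the call was lost in 17 of 24 alternatives, 10 of which left out a single library. Its neighbour KPNA2, an importin gene 54.7 kb away, had a log2 fold change of -0.22 (adjusted p = 0.334).

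LINC00261 is known for its expression in endoderm, where it lies beside FOXA2 and has been tied to that gene's expression during endoderm differentiation. FOXA2 encodes a forkhead factor of endoderm and of islet cells. LINC00261 lies at chr20:22560553-22578642, minus strand, 2.4 kb from FOXA2, and was the second most abundant of the 159. It held 78.3 to 171 CPM in Tunicamycin libraries, median 95.9, and 123 to 221 CPM in DMSO libraries, median 164. Tunicamycin 3 lay inside the DMSO range, and the other 5 lay below every DMSO library. The log2 fold change was -0.62 ± 0.16 (adjusted p = 0.0264), with all 6 pairs lower; batch 1 gave -0.68 and batch 2 gave -0.55. FOXA2 averaged 72.0 ± 10.8 CPM in Tunicamycin libraries and 93.4 ± 7.53 CPM in DMSO libraries, a log2 fold change of -0.38 ± 0.10 (adjusted p = 0.0312), also lower in 6 of 6 pairs. LINC00261 and FOXA2 were the only tested genes within 250 kb of the LINC00261 start, and both fell. The LINC00261 call was lost in 10 of 24 alternatives, among them the fits without Tunicamycin 2, 4 or 5 and without DMSO 3, 4 or 6.

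Markers of liver and gut, tissues that also express LINC00261, were lower with tunicamycin as well. Of 7 liver and gut markers, 6 fell, ALB, AFP, FABP1, VIL1, CDX2 and APOB, and the summed level was 207 to 349 CPM in Tunicamycin libraries and 369 to 528 CPM in DMSO libraries. Of 8 ductal and acinar markers, 4 fell, and their sum was 165 to 339 CPM in Tunicamycin libraries and 367 to 580 CPM in DMSO libraries. Some markers of other pancreatic and endocrine lists fell as well. These were IAPP, PDX1 and NKX6-1, 3 of the 6 tested beta cell markers (8 listed). They were also 2 of 5 enterochromaffin markers (DDC and FEV) and 2 of 5 endocrine progenitor markers (NEUROG3 and PAX4). Over all genes tested, 3.29% fell. The beta cell sum was 254 to 468 CPM in Tunicamycin libraries and 315 to 724 CPM in DMSO libraries. The enterochromaffin sum was 229 to 587 CPM in Tunicamycin libraries and 417 to 741 CPM in DMSO libraries. The progenitor sum was 513 to 868 CPM in Tunicamycin libraries and 578 to 923 CPM in DMSO libraries, so the ranges of all 3 lists overlapped. Of 5 delta, pancreatic polypeptide and epsilon cell markers, 0 were called. Their sum was 1734 to 3097 CPM in Tunicamycin libraries and 1343 to 5533 CPM in DMSO libraries. None of these markers was at 0 in all libraries. The part of these cell types in the changes of LINC00261 and FOXA2 was not tested.

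LINC01843, at chr5:134506552-134509230, plus strand, has no established role. It held 1.80 to 4.48 CPM in Tunicamycin libraries, median 3.17, and 3.60 to 8.70 CPM in DMSO libraries, median 5.92. The ranges overlapped, and each Tunicamycin library was below the DMSO library of its number. It had a log2 fold change of -0.97 ± 0.26 (adjusted p = 0.0355), and the call was lost in 11 of 24 alternatives, 8 of which left out a single library. JADE2, a chromatin gene 14.8 kb away, had a log2 fold change of 0.24 (adjusted p = 0.406).

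LINC02593, at chr1:916818-919692, minus strand, lies 4.2 kb from SAMD11, which encodes a nuclear protein studied in photoreceptors. LINC02593 held 3.27 to 6.59 CPM in Tunicamycin libraries, median 4.46, and 7.13 to 16.2 CPM in DMSO libraries, median 8.26. The groups did not overlap. The log2 fold change was -1.11 ± 0.26 (adjusted p = 0.0187), with -1.02 in batch 1 and -1.20 in batch 2. SAMD11 averaged 7.96 ± 2.84 CPM in Tunicamycin libraries and 23.8 ± 3.44 CPM in DMSO libraries, a log2 fold change of -1.60 ± 0.20 (adjusted p = 0.000195). LINC01128, which lies beyond LINC02593 and 64.5 kb from SAMD11, moved the other way. The remaining 10 tested genes within 250 kb of the LINC02593 start were not called. The LINC02593 call was lost without Tunicamycin 4 (adjusted p = 0.0556), without DMSO 5 (adjusted p = 0.0525), in either batch alone and with mesenchymal markers as a covariate, where the log2 fold change was -0.95.

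**Figure D2:**
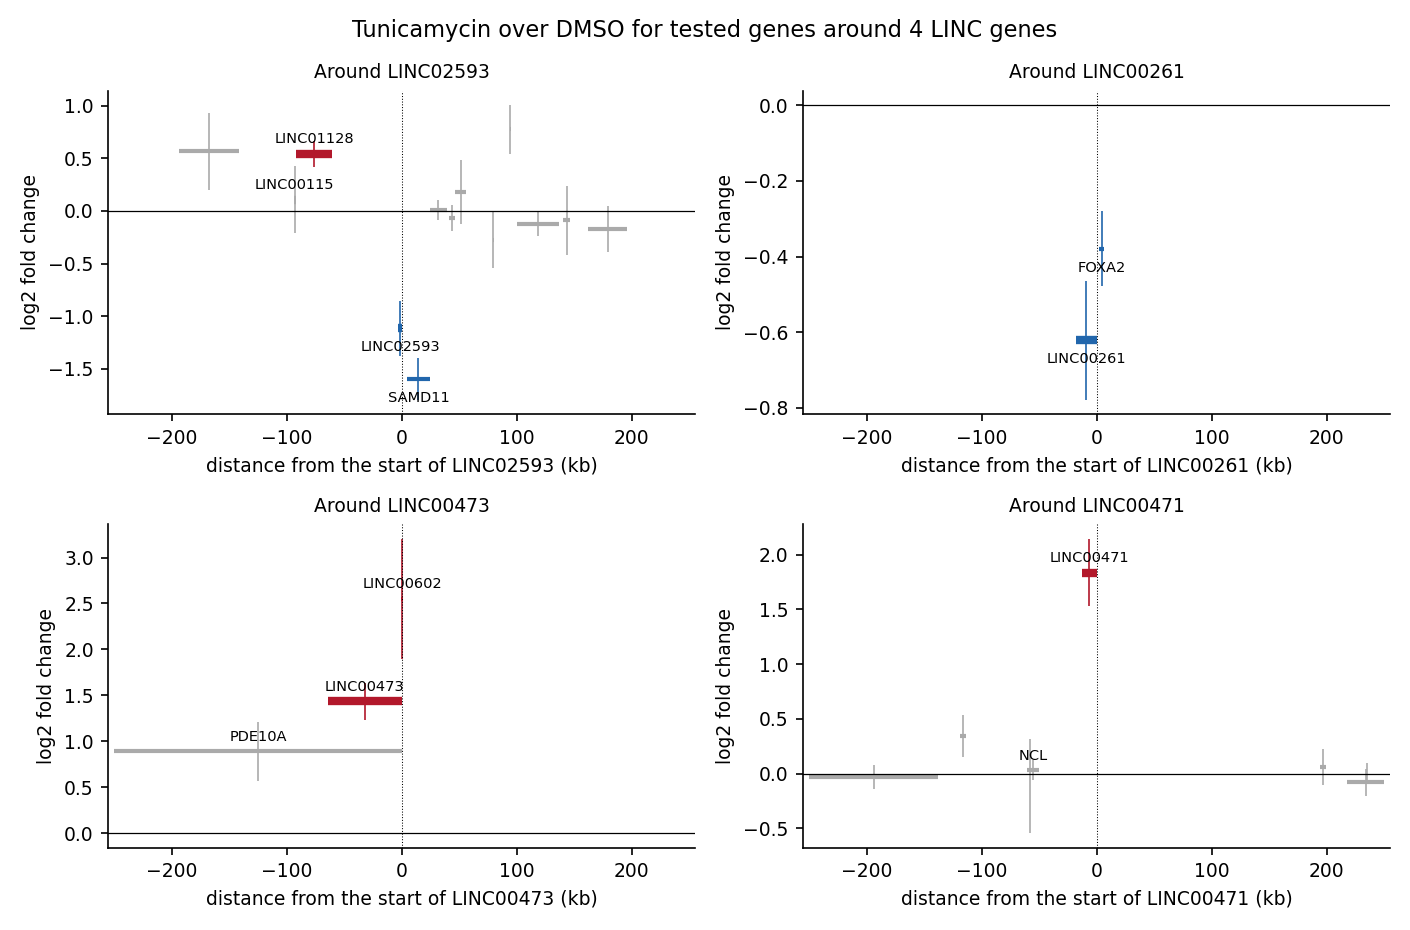
Log2 fold change (tunicamycin over DMSO) of tested genes within 250 kb of 4 LINC starts, with distance in kb on the horizontal axis; thick bars are gene bodies, vertical lines ± SE, red marks genes that rose, blue genes that fell and grey those not called. LINC02593 and SAMD11, and LINC00261 and FOXA2, fell together, while LINC00471 rose alone among its 8 tested genes.

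Leaving out Tunicamycin 4 lowered the count from 8 to 3, the rises of LINC00471, LINC00473 and LINC01881. The share of all genes called then fell from 7.84% to 4.53%. Leaving out DMSO 5 lowered the count to 5, and the share of all genes to 5.48%. Batch 2 alone also called 3, beside 3.93% of all genes tested. With the mesenchymal level as a covariate, 6 LINC transcripts were called, 4 of them among the 8, beside 5.06% of all genes tested. The other 2 were LINC02495 (adjusted p = 0.0419) and LINC00461 (adjusted p = 0.0257). When libraries were paired by number, 16 transcripts passed (11 rose, 5 fell; 10.1%), against 17.3% of all genes tested, and all 8 of the first fit were among them. The 8 added by pairing were LINC00963, LINC00294, LINC02035, LINC02256, LINC00662 and LINC01461, all higher, and LINC02495 and LINC00543, both lower; the last 3 were named after their values were seen. LINC00963, studied mostly in tumour cells, held 18.6 to 23.7 CPM in Tunicamycin libraries, median 22.9, and 10.01 to 21.2 CPM in DMSO libraries, median 14.7. Its adjusted p was 0.0513 with batch and 0.0141 with pairing. LINC00294 held 16.4 to 20.9 CPM in Tunicamycin libraries, median 17.2, and 9.37 to 16.0 CPM in DMSO libraries, median 14.1. The LINC00294 groups did not overlap, and its adjusted p was 0.0501 with batch and 0.0189 with pairing. Over all, the groups did not overlap for 5 of the 159 (3.14%), the 4 named above and LINC00294, against 3.77% of all genes tested.

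Some of the pairing-dependent transcripts, but not all, sit beside a gene that was called. TCP11L1, 2.6 kb from LINC00294, averaged 13.7 ± 2.29 CPM in Tunicamycin libraries and 8.80 ± 1.79 CPM in DMSO libraries (log2 fold change 0.64, adjusted p = 0.0345). SLC49A4, a transporter gene 5.4 kb from LINC02035, averaged 33.1 ± 6.78 CPM in Tunicamycin libraries and 21.3 ± 3.53 CPM in DMSO libraries (log2 fold change 0.63, adjusted p = 0.0101). CDX2, the intestinal homeobox factor 5.6 kb from LINC00543, averaged 1.79 ± 0.813 CPM in Tunicamycin libraries and 4.24 ± 1.25 CPM in DMSO libraries (log2 fold change -1.22, adjusted p = 0.0229). In each of these the LINC transcript and its neighbour had the same sign. LINC02495, now named JAKMIP1-DT, lies 0.2 kb from JAKMIP1, a gene studied in neurons. JAKMIP1 had a log2 fold change of -0.58 with an adjusted p of 0.0985, and of 0.00599 with pairing. Opposite signs were seen for LINC01461 (log2 fold change 1.12) and SSX2IP at 22.7 kb (-0.18, adjusted p = 0.444). The same held for LINC00662 (0.65) and UQCRFS1, 1411 kb away (-0.23, adjusted p = 0.444). The nearest protein-coding genes of LINC00963 and LINC02256 were not tested.

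Across the 159, responses were centred near 0. The median log2 fold change was -0.03, against -0.01 over all genes tested, and 82.4% of the LINC transcripts, like 82.4% of all genes tested, lay within 0.5 of 0. The median standard error was 0.25 for the LINC transcripts and 0.16 for all genes tested. All 6 pairs moved the same way for 25 transcripts (15.7%), 12 higher and 13 lower, against 21.1% of all genes tested. Of these 25, 17 did not pass the test. By level, 5 of 118 transcripts at 1 to 10 CPM (4.24%) and 3 of 41 at 10 CPM or more (7.32%) were called, beside 5.33% and 9.64% of all genes in the same ranges. The highest log2 fold change of any transcript, LINC00461 at 2.09, was not called with batch alone as covariate. Its highest value came from Tunicamycin 1, and its log2 fold change ran from -0.26 to 4.43 over the alternatives.

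**Figure D3:**
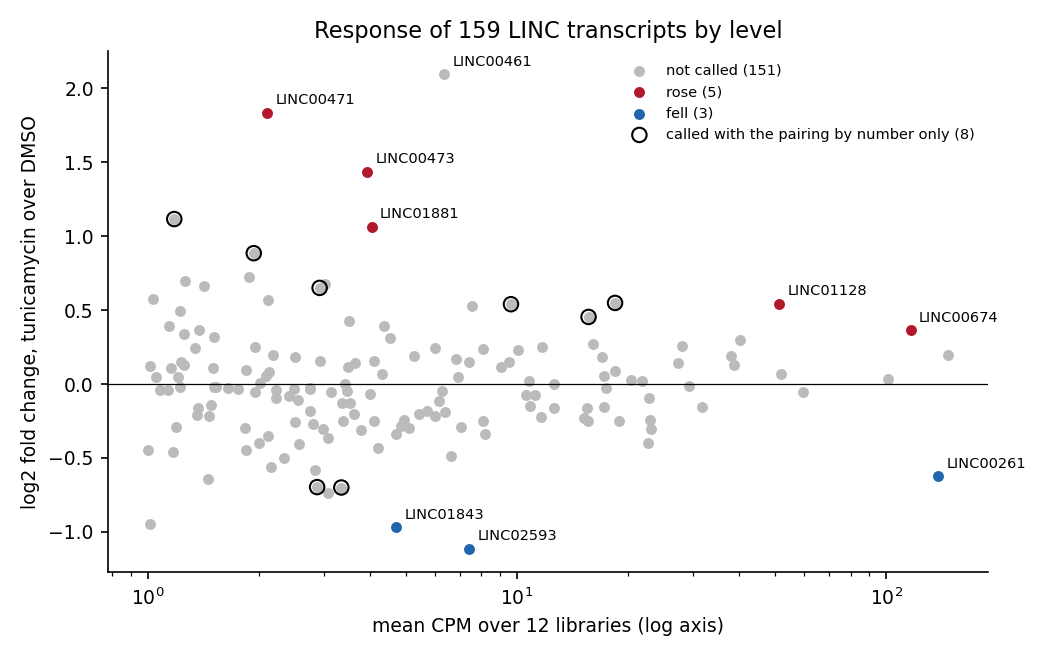
Log2 fold change, tunicamycin over DMSO, against mean CPM over 12 libraries (log axis) for the 159 LINC transcripts; red rose, blue fell, grey were not called, and open circles mark the 8 called only with pairing by number. The 3 highest called rises lie under 10 CPM, and LINC00261 is the second most abundant transcript.

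The level itself chose the transcripts, so it is given only as a description. Means over the 12 libraries reached 100 CPM in 4 transcripts, lay between 10 and 100 CPM in 37 and between 1 and 10 CPM in 118. The 8 most abundant took 40.8% of the summed level. LINC01000 averaged 154 ± 50.2 CPM in Tunicamycin libraries and 135 ± 68.0 CPM in DMSO libraries, with the number 3 library highest in each group. LINC00667 averaged 102 ± 11.5 CPM in Tunicamycin libraries and 100 ± 12.3 CPM in DMSO libraries. LINC00205 averaged 58.2 ± 6.23 CPM in Tunicamycin libraries and 60.6 ± 6.58 CPM in DMSO libraries. The differences of these 3 were within the spread of the libraries (adjusted p = 0.665, 0.896 and 0.804). LINC01578, now CHASERR, lies 1.6 kb from CHD2, a chromatin remodeller whose expression it is known to restrain. It averaged 53.2 ± 9.51 CPM in Tunicamycin libraries and 50.4 ± 10.9 CPM in DMSO libraries, and CHD2 averaged 213 ± 31.4 CPM in Tunicamycin libraries and 200 ± 32.8 CPM in DMSO libraries. Neither LINC01578 (log2 fold change 0.07, adjusted p = 0.811) nor CHD2 (0.09, adjusted p = 0.714) passed the test. LINC01278, on the X chromosome, averaged 44.3 ± 5.71 CPM in Tunicamycin libraries and 36.0 ± 5.47 CPM in DMSO libraries, and did not pass either (adjusted p = 0.181).

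Per kb of summed exons, the order changed. The annotation used for counting is not given and may differ from the one that supplied the exon lengths. A length shorter than that of the counted exons would raise a value per kb, so this order is a description only. LINC00674, with 0.734 kb of exons, was at 177 CPM per kb in Tunicamycin libraries and 138 CPM per kb in DMSO libraries, the highest of the 141 transcripts with a known length. LINC00261, with 5.55 kb, was at 19.4 CPM per kb in Tunicamycin libraries and 30.1 CPM per kb in DMSO libraries. LINC00667, with 6.65 kb, was at 15.4 CPM per kb in Tunicamycin libraries and 15 CPM per kb in DMSO libraries. At the edge of the rule, LINC01252 (1.005 CPM), LINC01590 (1.02 CPM) and LINC02731 (1.02 CPM) lay just inside, and LINC01852 (0.9997 CPM), LINC01798 (0.977 CPM) and LINC00884 (0.976 CPM) just outside. The 159 all passed the filter on low counts, and each had reads in every library.

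Of transcripts with a studied role, LINC00467 and LINC00339 did not pass the test. LINC00467 averaged 3.42 ± 0.929 CPM in Tunicamycin libraries and 3.42 ± 0.751 CPM in DMSO libraries (adjusted p = 0.997). LINC00339 averaged 17.3 ± 2.58 CPM in Tunicamycin libraries and 17.6 ± 2.39 CPM in DMSO libraries (adjusted p = 0.925). CELA3A, an acinar protease gene 12.6 kb from LINC00339, fell to 2.65 ± 1.5 CPM in Tunicamycin libraries, against 11 ± 8.29 CPM in DMSO libraries (log2 fold change -2.02, adjusted p = 0.029), and its reads may be shared with its near-identical copy CELA3B. LINC00662, studied in tumour cells, held 2.88 to 4.54 CPM in Tunicamycin libraries, median 3.53, and 1.31 to 3.04 CPM in DMSO libraries, median 2.35, with an adjusted p of 0.0701 with batch and 0.0342 with pairing.

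The nearest protein-coding gene of each LINC transcript gave 126 distinct tested neighbours, of which 16 were called (12.7%), 6 higher and 10 lower, beside 7.84% of all genes tested. With pairing by number, 28 neighbours were called (22.2%), beside 17.3% of all genes tested. These shares over all genes include noncoding genes and low levels, and none was computed for protein-coding genes alone. Among all genes at 10 CPM or more, 9.64% were called with batch as a covariate. Within 50 kb, 13 of 96 were called (13.5%). Taking the nearest tested gene in place of the nearest one, 16 of 153 were called (10.5%). With batch as a covariate, 3 pairs had both partners called, LINC00261 with FOXA2, LINC02593 with SAMD11 and, in opposite directions, LINC01128 with SAMD11. With pairing by number these were 8, the others being LINC00473 with PDE10A, LINC00294 with TCP11L1, LINC02035 with SLC49A4, LINC00543 with CDX2 and LINC02495 with JAKMIP1. Over the 97 transcripts with a tested neighbour within 50 kb, 61 had the sign of their neighbour. Pearson's r between both log2 fold changes was 0.15 and Spearman's rho 0.25 over these 97 points. The points come from the same 12 libraries and hold 96 distinct neighbours. None of the 18 transcripts that start within 1000 bases of an oppositely transcribed protein-coding gene was called together with it when batch was the covariate, and 1, LINC02495 with JAKMIP1, was with pairing by number.

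Some neighbours rose beside a LINC transcript that did not pass the test; these were named after their values were seen. SLC7A11, the cystine transporter gene that ATF4 is known to induce, had a log2 fold change of 2.39 ± 0.23 (adjusted p = 1.77e-05), while LINC00616 at 33.4 kb was at -0.26 ± 0.35 (adjusted p = 0.726), and at 0.13 without DMSO 6. CEBPB, a bZIP factor of stress responses, had 1.40 ± 0.27 (adjusted p = 0.00502), while LINC01273 at 13.9 kb was at 0.15 ± 0.34 (adjusted p = 0.852). The standard errors of LINC00616 and LINC01273 were larger than those of their neighbours, and each was at a mean level under 3 CPM.

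Hosts of neural microRNAs were highest in Tunicamycin 1. LINC00461, now MIR9-2HG, hosts miR-9, a microRNA of neural progenitors. It was at 54.1 CPM in Tunicamycin 1 and at most 3.67 CPM in the other Tunicamycin libraries, and at 11.4 CPM in DMSO 1 and at most 1.26 CPM in the other DMSO libraries. LINC00599, now MIR124-1HG, hosts the neuronal miR-124 and was at 27.7 CPM in Tunicamycin 1 and 1.58 to 7.49 CPM in the other Tunicamycin libraries, and at 1.52 to 9.11 CPM in DMSO libraries. MIR9-3HG, another miR-9 host and not a LINC symbol, was at 31.7 CPM in Tunicamycin 1 and 6.52 CPM in DMSO 1, each the highest of its group. SOX2, a factor of neural and pluripotent stem cells, was at 88.6 CPM in Tunicamycin 1 and 42.0 CPM in DMSO 1, also the highest of each group. PAX7, a factor of neural and muscle precursors, was at 8.79 CPM in Tunicamycin 1 and 2.64 CPM in DMSO 1. SOX2 stands in the pluripotent list and PAX7 in the neural one. Summed over the 7 neural markers, Tunicamycin libraries held 429 to 963 CPM, with Tunicamycin 1 highest, and DMSO libraries 472 to 831 CPM, with DMSO 1 (797 CPM) below DMSO 5 and DMSO 6. Not all neural markers followed, since in Tunicamycin 1 GFAP was the lowest of its group (0.245 CPM) and STMN2 (224 CPM) lay below Tunicamycin 2, 4 and 6. The fold change of LINC00461 did not pass the test (adjusted p = 0.356), and neither did that of LINC00599 (adjusted p = 0.652). MEF2C, 26.1 kb from LINC00461, fell to 15.3 ± 0.823 CPM in Tunicamycin libraries, against 28.5 ± 7.44 CPM in DMSO libraries (log2 fold change -0.90, adjusted p = 0.00261).

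**Figure D4:**
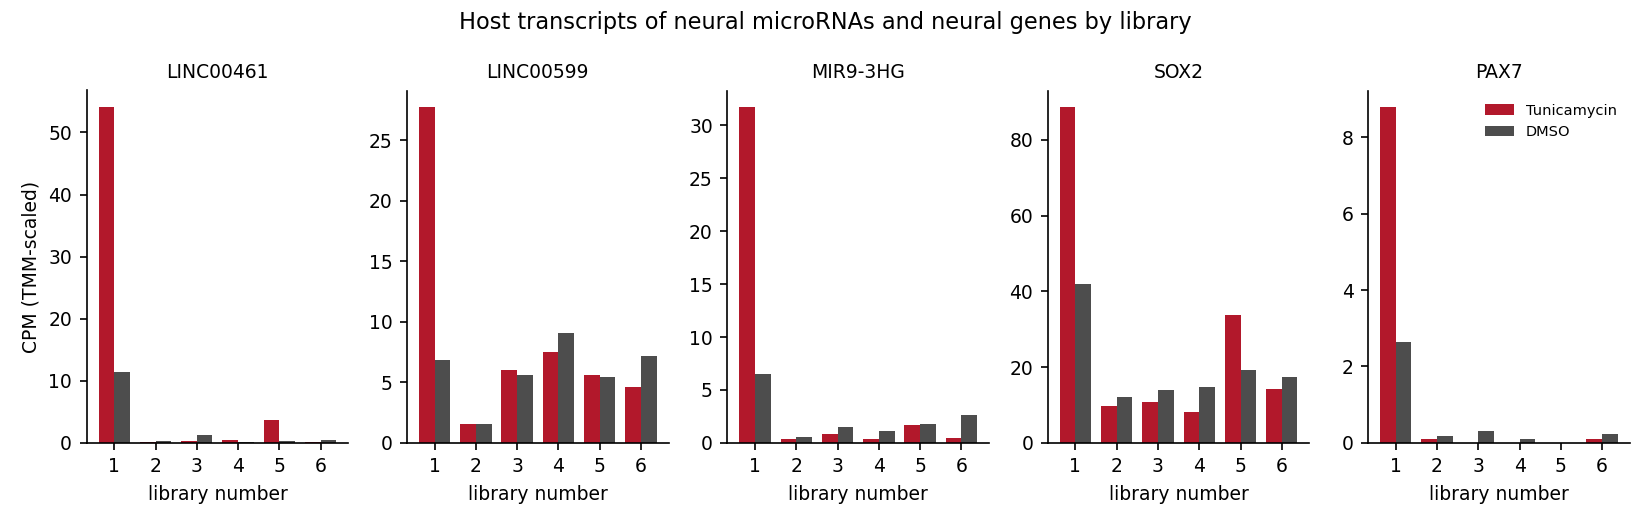
CPM, scaled by TMM factors, by library number for the microRNA hosts LINC00461, LINC00599 and MIR9-3HG and the factors SOX2 and PAX7; red bars are Tunicamycin and dark grey bars DMSO libraries. Tunicamycin 1 is the highest library in all 5 panels, at 54.1 CPM for LINC00461 and 88.6 CPM for SOX2.

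As a class, the 159 summed to 1726 ± 185 CPM in Tunicamycin libraries and 1709 ± 283 CPM in DMSO libraries (SD, n = 6 each). The sum was higher with tunicamycin in 3 of 6 pairs. The number 3 libraries stood highest, at 2049 CPM in Tunicamycin 3 and 2257 CPM in DMSO 3. Tunicamycin 3 had the highest Tunicamycin value for 52 of the 159 (32.7%), and DMSO 3, the library with the lowest total, the highest DMSO value for 79 (49.7%). DMSO 3 was also highest of its group for 48.3% of antisense transcripts, against 24.9% of all genes tested. Without both libraries numbered 3, 7 LINC transcripts were called, beside 7.12% of all genes tested. Without both numbered 1 it was also 7, beside 5.99% of all genes tested.

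**Figure D5:**
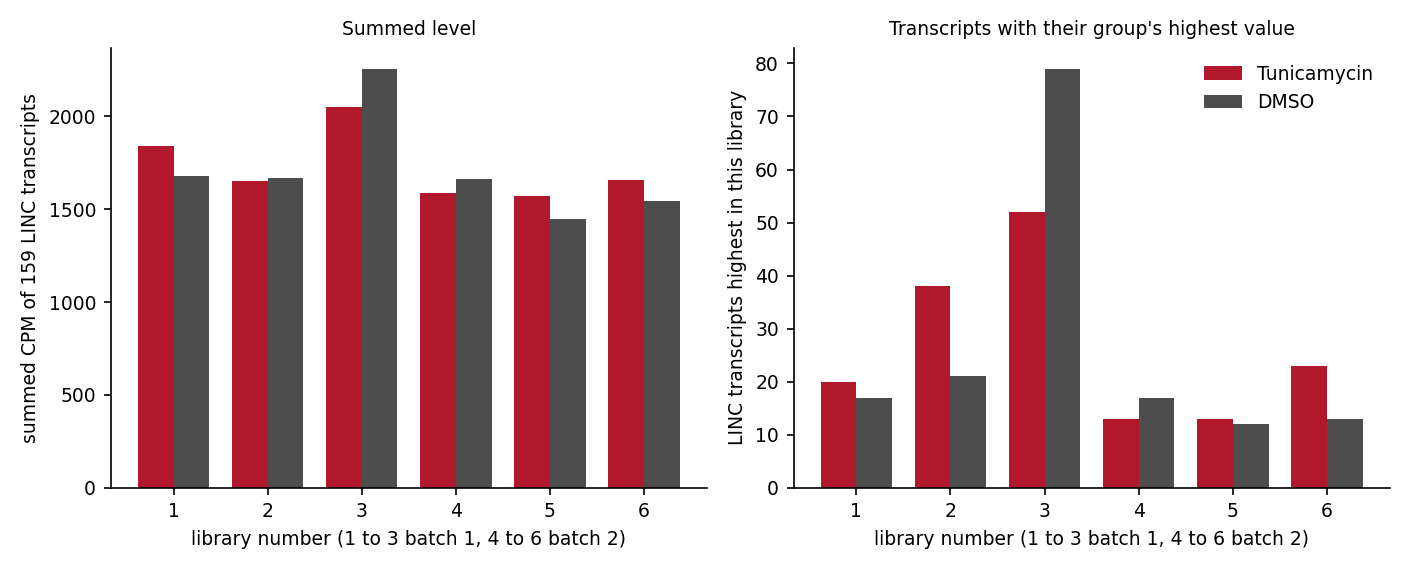
Summed CPM of the 159 LINC transcripts (left) and the number of them whose group maximum fell in a library (right), by library number, with Tunicamycin in red and DMSO in dark grey. The number 3 libraries are highest in both panels, with 52 transcripts in Tunicamycin 3 and 79 in DMSO 3.

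No transcript's response differed between the batches after adjustment. The interaction of treatment and batch was called for 0 LINC transcripts and 0% of all genes tested by edgeR, and 1 LINC transcript had an unadjusted p under 0.05. This was LINC00673, with a log2 fold change of 0.21 in batch 1 and -0.70 in batch 2 (unadjusted p = 0.0337, adjusted p = 1). LINC02562, at -0.61 in batch 1 and 0.05 in batch 2, and LINC02432, at -1.15 in batch 1 and 0.03 in batch 2, came next.

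Motifs of the unfolded protein response were searched in the promoters and compared with their share in all promoters. RefSeq promoter windows of 300 bases were found for 117 of the 159, including 6 of the 8 called. The ER stress element ERSE (CCAAT, any 9 bases, then CCACG) and ERSE-II (ATTGG, any 1 base, then CCACG), searched on both strands, were in 0 of the 117 and in 0.0806% and 0.0549% of all 27305 promoters. The XBP1-type core TGACGTGG was in 1 (0.855%), LINC00261, which fell, against 0.795% of all promoters. Its match begins 180 bases before the start. The ATF4-CHOP composite TGATGCAA was in 1, LINC01091, against 0.923% of all promoters. The cAMP response element TGACGTCA was in 4 (3.42%), LINC00265, LINC00630, LINC02527 and LINC00271, none of them called, against 1.98% of all promoters. Its first 7 bases, TGACGTC, searched after the sequences had been seen, were in 8 (6.84%), against 3.63% of all promoters, and these 8 include the 4 with the full element. LINC00473 was the only called transcript among the 8, with matches beginning 167 and 94 bases before its start. The median GC content of the windows was 60.3% for the LINC transcripts and 58.3% for all promoters.

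Other noncoding classes at the same level gave a setting for these counts. Antisense transcripts were called in 9 of 346 (2.60%), divergent transcripts in 1 of 44, microRNA hosts in 1 of 20 and small nucleolar RNA hosts in 1 of 23, against 8.40% of all genes at a mean of at least 1 CPM. The differences between these shares were not tested. RefSeq lists 155 of the 159 as long noncoding RNA, 3 as protein-coding genes under newer names, LINC00672 (LASP1NB), LINC00514 (GREP1) and LINC01279 (CCDC80), and 1 as a transcribed pseudogene, LINC00643 (SERTAD4BP). In all, 20 overlap a protein-coding gene. Their counts are uncertain where the counting did not use strand or where both genes lie on the same strand.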

How the data were processed

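Bulk RNA-seq libraries of 6 tunicamycin-treated and 6 DMSO-treated samples were analysed. The deposited table holds raw counts per gene symbol, not normalized. The tools cutadapt 4.4, HISAT2 2.1.0 and featureCounts 2.0.6 and the build GRCh38 stand in the submitters' processing notes; no source used here gives the annotation or strand setting. Groups, numbers and batches came from the labels. Whether replicates were separate differentiations is not given, and p-values then cover the spread between these libraries only.

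Members and lists were chosen with earlier results of these data known. Level for the member rule was CPM, counts scaled to 1000000 per column total; printed CPM used TMM-scaled totals. Genes were filtered with filterByExpr, which kept 17137 and removed 11141, and tested with edgeR 4.0.16 in R 4.3.3 (quasi-likelihood, batch as covariate, Benjamini-Hochberg, two-sided). The filter, tests and calls were tested on simulated data. Alternatives were a replicate block, DESeq2 1.42.0, limma 3.58.1 (voom), other scalings, no filter, no batch, left-out libraries, each batch alone, a mesenchymal covariate and member minimums of 0.5 and 2 CPM. Same-numbered libraries deviated together from their group and batch means, with correlations of 0.12 to 0.579 in the 6 pairs, so the numbers were taken to pair the samples, on the data and not on the labels. For numbers 4 and 5 a library of another number correlated better (0.196 and 0.273 against 0.12 and 0.184), so the pairing is weaker in batch 2. Libraries of a group differed beyond sampling noise (chi-square per gene 9.5 to 85.7).

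Named were all called members, the 8 most abundant, those next to the CPM minimum, the 3 smallest interaction p-values, the 5 smallest p-values among those called only with the block, 5 members from a list of studied roles, and neighbours of called members; others were named after their values were seen. Positions, names and promoters are from RefSeq (GRCh38.p14), with 137 symbols matched directly and 22 through older symbols. Exon lengths are from GENCODE 29.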

Additional observations from a re-analysis of the deposited data

Results flagged for a closer look

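Single libraries that stood far from the rest of their group were looked for in the named genes and the summed level (Dixon's test at 95%). Of 136 groups of 6 libraries, 27 held such a library. Over all 159 LINC transcripts it was 46 of 318 groups. By chance the test flags about 1 in 20 groups of independent, normally distributed values. These groups share libraries, their CPM were not log-scaled, and some genes were named after their values were seen. The counts are therefore a description only.

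Tunicamycin 1 stood highest in its group for LINC00473 (8.13 CPM), LINC00461 (54.1 CPM), LINC00599 (27.7 CPM), MIR9-3HG (31.7 CPM), PDE10A (18.3 CPM), SAMD11 (13.5 CPM) and ASNS (12 CPM). DMSO 1 stood highest for LINC00461 (11.4 CPM), MIR9-3HG (6.52 CPM) and LINC00602 (0.48 CPM), and lowest for MIR7-3HG (81.4 CPM). Libraries numbered 1 thus share high values of the miR-9 hosts in both groups.

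Tunicamycin 3 stood highest for LINC01252 (2.26 CPM), LINC00543 (4.56 CPM), D2HGDH (67.4 CPM) and LINC00607 (0.527 CPM), and lowest for HERPUD1 (245 CPM). DMSO 3 stood highest for LINC02035 (14.1 CPM), LINC01000 (269 CPM), LINC01252 (4.48 CPM), D2HGDH (92.7 CPM) and the summed level of the LINC transcripts (2257 CPM). Tunicamycin 2 stood highest for LINC01128 (81.5 CPM), SLC49A4 (46.2 CPM), JAKMIP1 (23.7 CPM) and DNAJC3 (492 CPM). DMSO 5 stood lowest for LINC01278 (25.1 CPM), and DMSO 6 highest for LINC00616 (6.78 CPM).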

How the results depend on the processing

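The count of called LINC transcripts (8; 5 higher, 3 lower) was 16 (11 higher, 5 lower) with the replicate block, 0 (0 higher, 0 lower) in batch 1 alone and 3 (3 higher, 0 lower) in batch 2 alone. Leaving out each library in turn gave 3 to 8 called, 3 to 6 higher and 0 to 3 lower, beside 4.53% to 8.03% of all genes tested. DESeq2 called 12, of which 8 were higher, beside 12.3% of all genes tested. With limma-voom 10 were called, beside 7.66% of all genes tested. Over all genes, 1344 were called, against 2967 with the replicate block, 2100 with DESeq2, 867 with the mesenchymal covariate, 791 without Tunicamycin replicate 4, 57 in batch 1 alone and 654 in batch 2 alone. Fewer libraries enter the fits of a single batch; the other causes were not tested. No called transcript changed direction in any alternative. Among the LINC transcripts the replicate block changed no call other than the 8 it added, and it called 28 neighbours in place of 16, an alternative chosen after seeing the data. With a minimum of 0.5 CPM 9 of 230 tested transcripts were called, and with 2 CPM 8 of 119, beside 7.84% of all genes tested. The median standard error of 0.25 on the log2 scale limits what was detectable for transcripts of a few CPM.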

Other observations

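Outside the 159, some noncoding transcripts were called as changed. These were named after their values were seen. DNAJC3-DT, which starts beside DNAJC3, the gene of an ER co-chaperone induced in the unfolded protein response, averaged 37.5 ± 6.33 CPM in Tunicamycin libraries and 14.6 ± 1.34 CPM in DMSO libraries (SD, n = 6 each). Its log2 fold change was 1.35 ± 0.11 (edgeR adjusted p = 3.71e-06), and that of DNAJC3 was 1.92 ± 0.13 (adjusted p = 7.77e-07). CEBPB-AS1, antisense to CEBPB, had a log2 fold change of 0.72 ± 0.19 (adjusted p = 0.0372). SNHG7, a host of small nucleolar RNAs, had 0.57 ± 0.12 (adjusted p = 0.0109), with overlapping groups. MIR7-3HG, host of the endocrine microRNA miR-7, fell to 82.6 ± 17.7 CPM in Tunicamycin libraries, against 124 ± 21.5 CPM in DMSO libraries (log2 fold change -0.59 ± 0.16, adjusted p = 0.0424). The MIR7-3HG groups overlapped through DMSO 1 (81.4 CPM).

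Of 116 tested LINC rows under a mean of 1 CPM, 2 were called (1.72%), against 7.84% of all genes tested. LINC00602 rose and LINC00607 fell. LINC00607 was at most 0.527 CPM in Tunicamycin libraries and at 0.843 to 2.85 CPM in DMSO libraries (log2 fold change -3.11 ± 0.58, edgeR adjusted p = 0.00464). Passing the filter on low counts rested on the Tunicamycin libraries for LINC00602 and on the DMSO libraries for LINC00607. Both calls are therefore given as a description only.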
